A study of Homo sapiens with 12 samples.

Results

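The 10 genes described here carry iron into a cell, store it, release it from storage, export it, or sense how much of it is present. They were taken from the deposited expression table by gene symbol, 10 of its 36866 genes. They were TFRC, STEAP3 and SLC11A2 for uptake, FTH1, FTL and NCOA4 for storage, SLC40A1 for export, IREB2 and ACO1 for iron sensing, and PCBP2 for iron delivery inside the cell. RNA was sequenced from THP-1 cells and from U-937 cells, AML lines of monocytic origin with a complex karyotype, after 24 h. The 4 groups were THP-1 with DMSO, THP-1 with honokiol, U-937 with DMSO and U-937 with honokiol, with 3 libraries each, and the controls received 0.1% DMSO. Honokiol is a small molecule from magnolia bark. The labels name 20 μM and 35 μM honokiol without saying which line received which, so that dose and line cannot be told apart. Each line is a single cultured line, and nothing in the labels says that the 3 libraries of a group came from separate cultures, so the p-values measure only the spread between these libraries.

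Cells take up iron mainly as transferrin bound to the transferrin receptor, reduce it in the endosome and move it into the cytosol, where ferritin stores what is not used at once. When iron is short, the iron regulatory proteins bind hairpins in mRNA called iron-responsive elements (IREs). Binding in the 5′UTR of the ferritin and ferroportin mRNAs blocks their translation, and binding in the 3′UTR of the transferrin receptor mRNA protects it from decay. Monocytes and macrophages recycle iron and hold much ferritin, and iron in its free ferrous form is what drives lipid peroxidation in ferroptosis, the form of cell death that the study examined.

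Matches to a strict pattern of the IRE hairpin are shown because their place differs between members. Elements in the 5′UTR act on translation, and those in the TFRC 3′UTR on decay of the mRNA, which a count of mRNA can show. A C, any 5 bases and the loop CAGTGN were searched on the transcript strand in the UTRs of GENCODE 29 transcripts (GRCh38), with the 5 bases on either side of the loop required to pair, G with T allowed. Capitals mark the bulged C and the loop, and each sequence is written 5′ to 3′.
FTH1 5′UTR, chr11:61967574-61967602, minus strand: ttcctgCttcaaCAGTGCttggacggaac
FTL 5′UTR, chr19:48965335-48965363, plus strand: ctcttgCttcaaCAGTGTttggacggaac
SLC40A1 5′UTR, chr2:189580661-189580689, minus strand: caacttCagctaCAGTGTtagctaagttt
TFRC 3′UTR 1, chr3:196050979-196051007, minus strand: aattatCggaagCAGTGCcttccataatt
TFRC 3′UTR 2, chr3:196050575-196050603, minus strand: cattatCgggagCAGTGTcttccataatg
TFRC 3′UTR 3, chr3:196050510-196050538, minus strand: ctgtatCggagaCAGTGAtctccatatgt
TFRC 3′UTR 4, chr3:196050463-196050491, minus strand: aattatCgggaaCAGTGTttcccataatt

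The 2 ferritin elements were identical at 26 of 29 bases, whereas the FTH1 and SLC40A1 elements shared 13 of 29. Among the 4 TFRC elements found, the first and the second shared 25 of 29 bases and the second and the third 18 of 29. Elements that depart from the pattern are missed, so the list need not be complete for any gene, TFRC included. Of the protein-coding genes with a 5′UTR, 36 of 19043 (0.189%) held such a match there, and of those with a 3′UTR, 132 of 19573 (0.674%). The other 6 genes held no match, which says only that the letters and the required pairing were not found together in their annotated UTRs. SLC11A2 is among them, although an isoform of its mRNA is known to carry a 3′UTR IRE. A match is a description of the sequence, and binding was not measured.

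The libraries summed to 57406966 to 75065752 estimated counts. Mitochondrially encoded genes took 5.61% to 7.55% of them, except in the first DMSO library of each line (13.7% for THP-1, 12.6% for U-937). Markers of monocytic cells were present at an FPKM of at least 0.5 for 11 of 11 genes in THP-1 and 10 of 11 in U-937, where MPO was below it. Their summed level per library was 777.5 to 933.06 FPKM in THP-1 with DMSO, 780.63 to 871.94 in THP-1 with honokiol, 609.39 to 927.18 in U-937 with DMSO and 527.3 to 608.29 in U-937 with honokiol. LYZ weighs heavily in the U-937 sums, with means of 489 FPKM under DMSO and 282 under honokiol. Of the 10 markers tested there, 7 had a positive log2 fold change, honokiol over DMSO, and 0 passed after adjustment. Of 12 erythroid markers, 2 at most (KLF1 and EPOR) reached an FPKM of 0.5 in any group, and HBB was not listed. Of the 5 epithelial markers only KRT8 reached it, in THP-1.

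On the FPKM scale, which corrects for gene length, the members spanned a wide range. FTL, the light chain of ferritin, was the most abundant, with group means of 2542 to 6865 FPKM, and ranked between 4 and 16 among all genes of a group. FTH1, the heavy chain, which oxidizes iron for storage, had means of 155 to 307 FPKM. TFRC, NCOA4 and PCBP2 lay between 25.0 and 59.1 FPKM in every group, and IREB2 between 12.2 and 19.7 FPKM. STEAP3, ACO1, SLC11A2 and SLC40A1 had group means under 14 FPKM, and SLC40A1 in U-937 was the lowest, at 0.933 to 0.963 FPKM. All 10 reached 0.5 FPKM in 3 or more libraries, the filter on low values, in each fit.

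**Figure D1:**
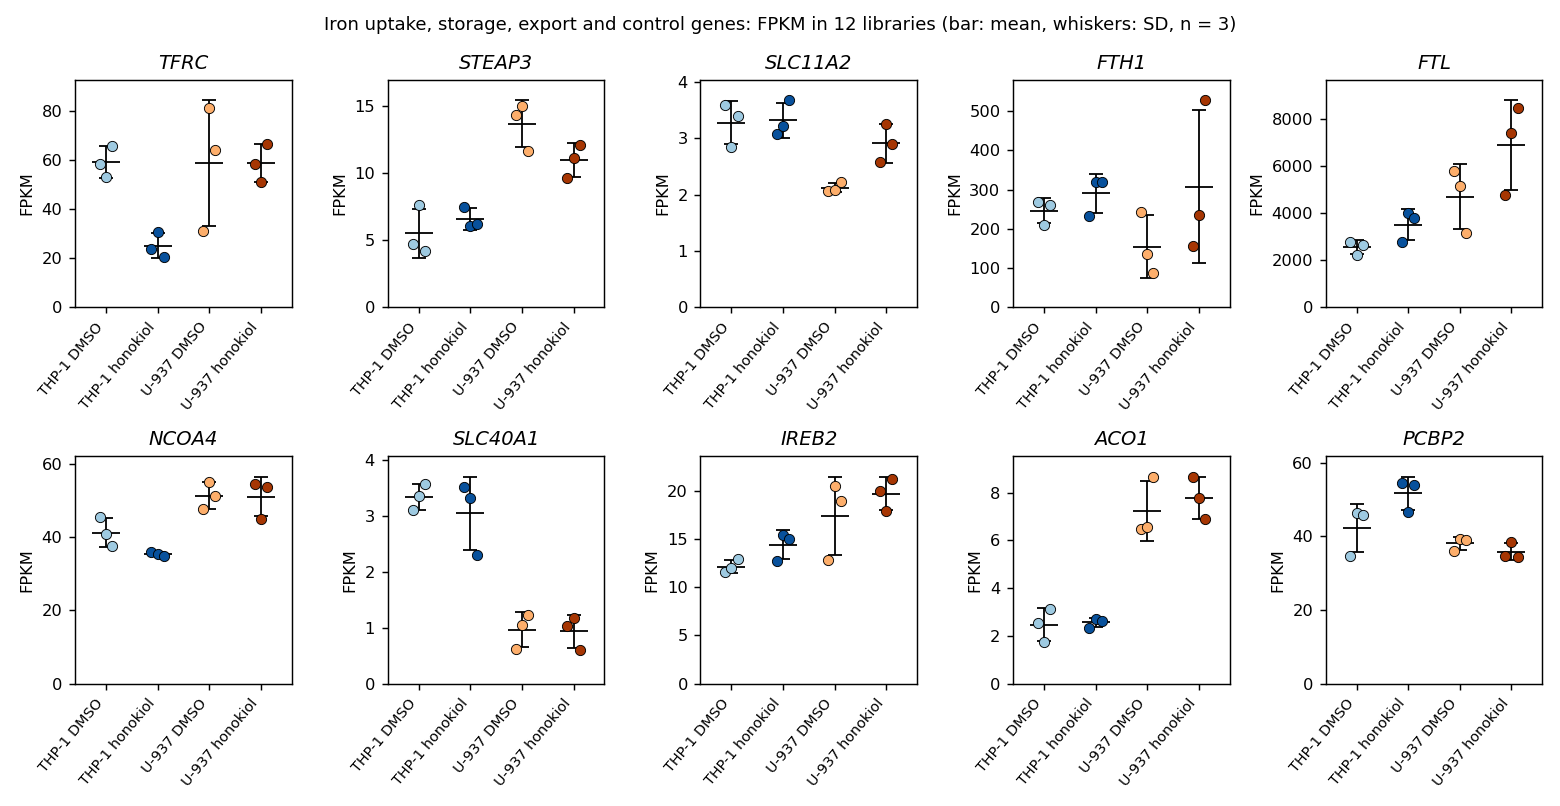
FPKM of the 10 iron genes in the 12 libraries, 1 panel per gene, each with its own linear axis from 0. Points are libraries, bars are group means and whiskers are the SD of 3 libraries. TFRC was lowest in the 3 honokiol libraries of THP-1 (20.7 to 30.5 FPKM), SLC40A1 was lower and ACO1 higher in the U-937 libraries, and FTH1 spread most in U-937.

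The first question was whether honokiol moved the iron genes. A gene was called where edgeR's quasi-likelihood test gave a Benjamini-Hochberg adjusted p under 0.05 with a log2 fold change over 1 in size. In THP-1 0 of the 10 genes were called, where 0.0411% of 14600 genes were called, and 0 of 10 in U-937, where 0.0947% of 13726 were. At an unadjusted p under 0.05 it was 1 of 10 in THP-1 (TFRC, lower), against 13.1% of all genes, and 2 of 10 in U-937 (SLC11A2 higher and STEAP3 lower), against 16.7%. DESeq2 called 1 member in THP-1 (TFRC, lower), against 1.71% of all genes, and 0 in U-937, against 1.63%. An unadjusted p under 0.05 with the same fold threshold was met by 1 member in THP-1 (TFRC), against 2.79% of all genes. The members' median log2 fold change was 0.08 for THP-1 and -0.03 for U-937, beside -0.00 and 0.02 over all genes tested.

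TFRC, the transferrin receptor (ENSG00000072274, chr3:196027183-196082096), was the member that stood farthest from DMSO in THP-1. Its FPKM was 58.3, 53.1 and 65.9 in THP-1 with DMSO and 23.9, 30.5 and 20.7 with honokiol, so that every honokiol library lay below every DMSO library. The log2 fold change was -1.30 (SE 0.18), a 2.45-fold lower level, with an unadjusted p of 9.72e-05 and an adjusted p of 0.0622, and TFRC ranked 22 by p-value. It therefore missed the threshold after adjustment. DESeq2 gave an adjusted p of 1.77e-07 for it, and over the 18 alternatives its log2 fold change lay between -1.46 and -1.17 and its adjusted p between 1.77e-07 and 0.282.

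In U-937 the TFRC libraries overlapped. They were at 30.9, 81.2 and 64.0 FPKM with DMSO and at 58.2, 51.2 and 66.6 with honokiol, a log2 fold change of -0.07 (SE 0.30, adjusted p = 0.931). DMSO replicate 1, the low library, is the one in which mitochondrial genes took 12.6% of the counts, and the part of this in its TFRC level was not tested. Without it the log2 fold change was -0.37 (SE 0.17, adjusted p = 0.344), and without DMSO replicate 2 it was 0.23 (SE 0.28, adjusted p = 0.737), so that 1 library decided its direction, as also without honokiol replicate 2 (0.0333, adjusted p = 0.978).

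The difference between the 2 responses was tested as an interaction in a fit of all 12 libraries. For TFRC the U-937 response exceeded the THP-1 response by 1.21 on the log2 scale (SE 0.38, unadjusted p = 0.00845), and the adjusted p was 0.362. No member was called for the interaction (0 of 10, against 0.111% of 16283 genes), and 2 of 10 had an unadjusted p under 0.05, TFRC higher and PCBP2 lower, against 9.37% of all genes (4.82% higher and 4.54% lower). With the fold threshold added it was 1 of 10 (TFRC), against 4.29%. A different response of TFRC in the 2 lines was thus not established by this test.

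The other uptake genes did not pass after adjustment in either line. STEAP3 (ENSG00000115107, chr2:119223831-119265652) is the endosomal reductase that turns ferric into ferrous iron. In U-937 its FPKM was 14.3, 15.0 and 11.7 with DMSO and 9.65, 11.2 and 12.1 with honokiol, and the groups overlapped. The log2 fold change was -0.41 (SE 0.16, unadjusted p = 0.0361, adjusted p = 0.268), and in THP-1, with 4.75, 7.62 and 4.16 FPKM under DMSO and 7.49, 6.05 and 6.2 under honokiol, it was 0.21 (SE 0.23, adjusted p = 0.726).

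SLC11A2 (ENSG00000110911, chr12:50979401-51028566) encodes the transporter DMT1, which carries ferrous iron out of the endosome. It was at 2.07, 2.08 and 2.22 FPKM in U-937 with DMSO and at 2.57, 3.26 and 2.90 with honokiol. Each honokiol library of U-937 lay above its DMSO libraries, with a log2 fold change of 0.37 (SE 0.15, unadjusted p = 0.0384, adjusted p = 0.274). In THP-1 the groups overlapped, at 3.59, 2.85 and 3.39 FPKM with DMSO and 3.07, 3.21 and 3.67 with honokiol.

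Ferritin had higher group means with honokiol in both lines, none past the threshold. FTH1 (ENSG00000167996, chr11:61959718-61967634) was at 268, 211 and 259 FPKM in THP-1 with DMSO and at 233, 319.8 and 319 with honokiol. In U-937 it was at 242, 135 and 87.0 FPKM with DMSO and at 157, 236 and 527 with honokiol. The groups overlapped in each line, and the lowest and the highest library were both from U-937, DMSO replicate 3 and honokiol replicate 3. The log2 fold change was 0.18 (SE 0.18, adjusted p = 0.701) in THP-1 and 0.88 (SE 0.52, adjusted p = 0.431) in U-937, where it was 0.22 without honokiol replicate 3 and 1.41 without DMSO replicate 1 (adjusted p = 0.877 and 0.268).

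FTL (ENSG00000087086, chr19:48965309-48966879) was at 2780.04, 2213 and 2633 FPKM in THP-1 with DMSO and at 2751, 3981 and 3795 with honokiol. In U-937 it was at 5785, 5146 and 3139.97 FPKM with DMSO and at 4743, 7407.5 and 8445 with honokiol. As for FTH1, honokiol replicate 1 was the lowest honokiol library in each line and lay within the DMSO range. The log2 fold change was 0.40 (SE 0.20, adjusted p = 0.428) in THP-1 and 0.45 (SE 0.30, adjusted p = 0.493) in U-937.

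NCOA4 (ENSG00000266412, chr10:46005088-46030714), the receptor that delivers ferritin to the lysosome for iron release, was at 45.6, 40.8 and 37.5 FPKM in THP-1 with DMSO and at 35.96, 35.5 and 34.9 with honokiol. Its THP-1 groups did not overlap, honokiol being lower, and the log2 fold change of -0.28 (SE 0.14) had an adjusted p of 0.433. In U-937 the 6 libraries lay between 44.9 and 55.2 FPKM, with a log2 fold change of -0.09 (SE 0.13, adjusted p = 0.773).

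SLC40A1 (ENSG00000138449, chr2:189560590-189583758) encodes ferroportin, the only known iron exporter of vertebrate cells. It was at 3.10, 3.36 and 3.56 FPKM in THP-1 with DMSO and at 3.51, 3.32 and 2.29 with honokiol. In U-937 it was at 0.62, 1.05 and 1.22 FPKM with DMSO and at 1.03, 1.17 and 0.60 with honokiol, from 175 to 395 estimated counts per library. The treatment groups overlapped in each line, with log2 fold changes of -0.19 (SE 0.20, adjusted p = 0.705) in THP-1 and -0.13 (SE 0.33, adjusted p = 0.884) in U-937.

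The iron regulatory proteins are IRP1, encoded by ACO1, and IRP2, encoded by IREB2. IRP1 is cytosolic aconitase while it holds an iron-sulfur cluster and binds RNA without it, and IRP2 is degraded when iron is plentiful, so that the activity of each is set after the mRNA is made. IREB2 (ENSG00000136381, chr15:78437431-78498209) was at 11.6, 11.98 and 12.9 FPKM in THP-1 with DMSO and at 12.7, 15.5 and 15.1 with honokiol, overlapping by 1 library, with a log2 fold change of 0.19 (SE 0.13, adjusted p = 0.534). In U-937 it was at 12.8, 20.5 and 18.9 FPKM with DMSO and at 20.0, 17.9 and 21.3 with honokiol (log2 fold change 0.10, SE 0.17, adjusted p = 0.811).

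ACO1 (ENSG00000122729, chr9:32384603-32450836) was at 2.54, 1.74 and 3.13 FPKM in THP-1 with DMSO and at 2.34, 2.71 and 2.63 with honokiol. In U-937 it was at 6.47, 6.55 and 8.66 FPKM with DMSO and at 8.63, 7.79 and 6.88 with honokiol. The treatment groups overlapped in each line, and the log2 fold changes were -0.01 (SE 0.23, adjusted p = 0.991) and 0.02 (SE 0.15, adjusted p = 0.969).

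PCBP2 (ENSG00000197111, chr12:53452102-53481162) is an RNA-binding protein that also acts as an iron chaperone. It was at 34.7, 46.4 and 45.8 FPKM in THP-1 with DMSO and at 54.7, 46.6 and 54.0 with honokiol, and the groups did not overlap. In U-937 it was at 36.2, 39.3 and 39.2 FPKM with DMSO and at 34.6, 38.6 and 34.5 with honokiol. The log2 fold change was 0.24 (SE 0.14, adjusted p = 0.476) in THP-1 and -0.18 (SE 0.11, adjusted p = 0.468) in U-937, and the difference between them was -0.43 (SE 0.16, unadjusted p = 0.0217, adjusted p = 0.435).

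Across the 10 genes, the groups did not overlap in THP-1 for 3 (PCBP2 higher, TFRC and NCOA4 lower), against 20.6% of all genes (13% higher, 7.62% lower), and in U-937 for 1 (SLC11A2 higher), against 24.2% (16.7% higher, 7.5% lower). A count of 3 or 1 among 10 genes is near these backgrounds.

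**Figure D2:**
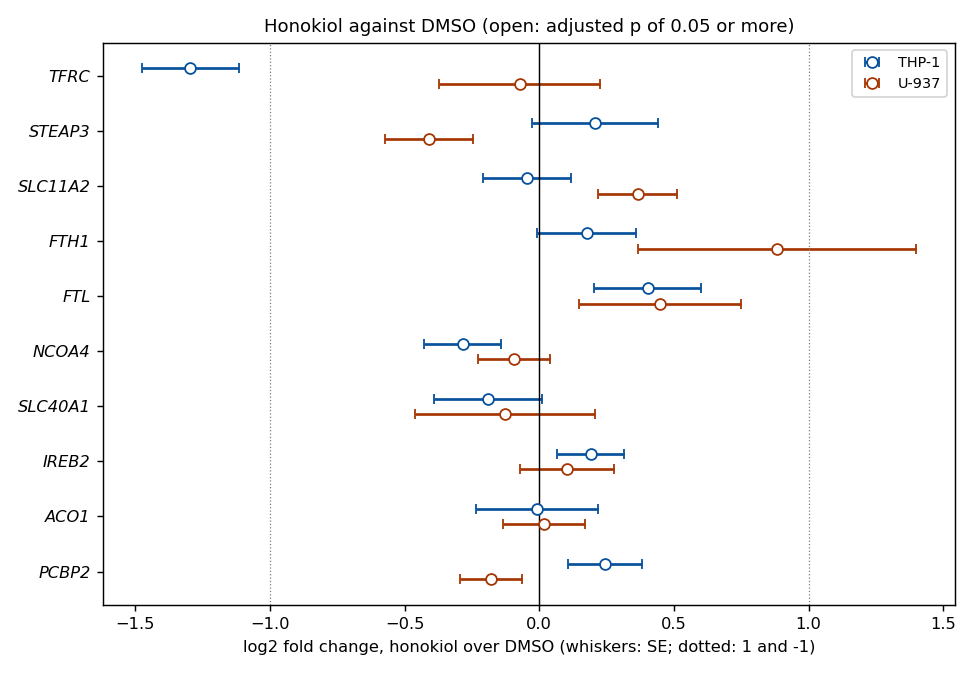
Log2 fold change of each iron gene, honokiol over DMSO, in THP-1 and in U-937 (edgeR, whiskers are SE, dotted lines mark 1 and -1). Open points have an adjusted p of 0.05 or more, which holds for all 20. TFRC in THP-1, at -1.30, is the only point beyond a dotted line.

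A ratio of 2 genes within a library needs no scaling between libraries, so the receptor was set against the ferritin heavy chain. The ratio of TFRC to FTH1 FPKM was 0.217, 0.252 and 0.254 in THP-1 with DMSO and 0.102, 0.0954 and 0.0648 with honokiol. The groups did not overlap, and the mean log2 ratio was 1.48 lower with honokiol (log2 difference -1.48, 2.80-fold lower). The ratio reuses the TFRC values above (log2 fold change -1.30), beside 0.18 for FTH1, whose groups overlapped. It is therefore not a result separate from that of TFRC. The exact two-sided permutation p of 0.1 is the smallest that 3 libraries against 3 allow, so the design could not pass 0.05.

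In U-937 the TFRC to FTH1 ratio was 0.128, 0.604 and 0.735 with DMSO and 0.370, 0.217 and 0.126 with honokiol. DMSO replicate 1, with the lowest TFRC and the highest FTH1 of its group, lay among the honokiol libraries. The log2 difference was -0.83 (exact permutation p = 0.4), and it was -1.62 without that library.

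The ratio of the ferritin chains was almost constant between the libraries of a THP-1 group. FTH1 to FTL was 0.0966, 0.0952 and 0.0985 in THP-1 with DMSO and 0.0847, 0.0803 and 0.0840 with honokiol, a log2 difference of -0.22 with no overlap (exact permutation p = 0.1, the smallest possible). In U-937 the ratio was 0.0419, 0.0261 and 0.0277 with DMSO and 0.0332, 0.0319 and 0.0624 with honokiol (log2 difference 0.37, exact permutation p = 0.5).

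Reads of FTH1 and FTL can also match processed pseudogenes. The 16 listed pseudogene rows of FTH1 held 1.01% to 2.24% of the summed counts of gene and pseudogenes, and the 7 of FTL held 0.0575% to 0.108%. Summing their FPKM with that of their gene left the THP-1 ratio of FTH1 to FTL at a log2 difference of -0.22.

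**Figure D3:**
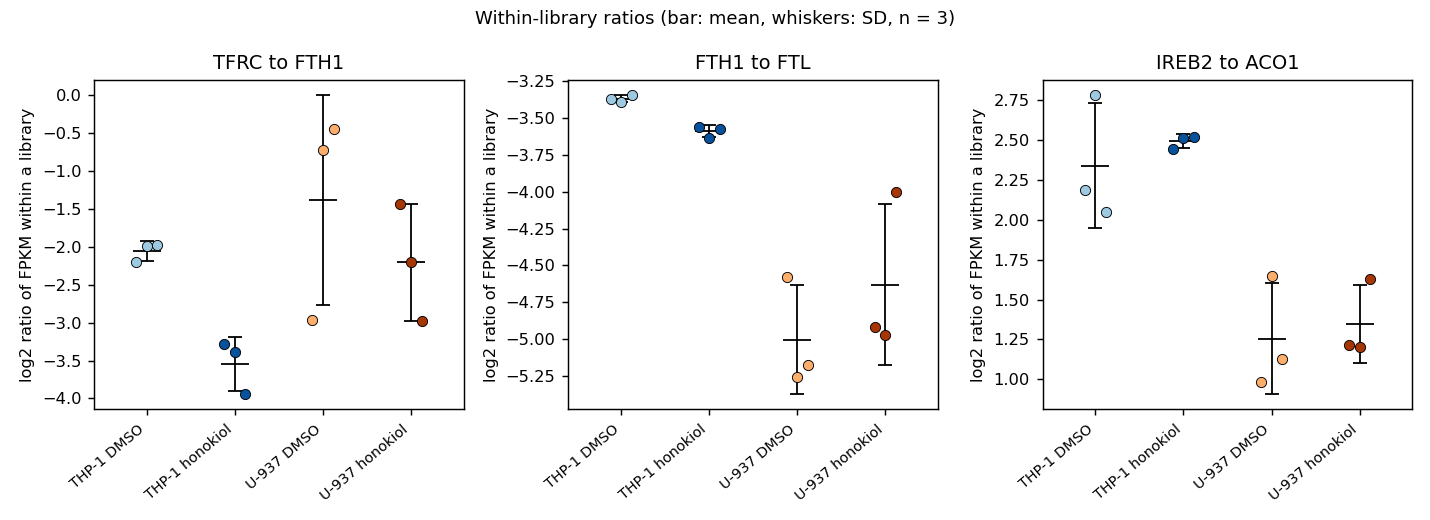
Log2 ratio of FPKM within each library for TFRC to FTH1, FTH1 to FTL and IREB2 to ACO1, in the 4 groups. Points are libraries, bars are means and whiskers are the SD of 3 libraries. In THP-1 the honokiol libraries lie below the DMSO libraries for the first 2 ratios, and in U-937 the groups overlap in all 3.

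The second question was how the iron genes differ between the lines. With DMSO, 3 of 10 members were called (STEAP3 and ACO1 higher in U-937, SLC40A1 lower), against 34% of 16283 genes. With honokiol it was also 3 of 10 (TFRC and ACO1 higher in U-937, SLC40A1 lower), against 32.2%. At an adjusted p under 0.05 with any fold change, 6 of 10 passed with DMSO, against 52.9% of all genes, and 7 of 10 with honokiol, against 51.4%. The libraries of the lines did not overlap for 6 of 10 with DMSO (4 higher and 2 lower in U-937), against 56.7% of all genes (27.7% and 29%), and for 8 of 10 with honokiol (6 higher and 2 lower), against 64.5% (33.7% and 30.8%). The members' shares of called genes are near those of all genes. With honokiol the share that did not overlap and was higher was larger (6 of 10 against 33.7%), as was that at any fold change (7 of 10 against 51.4%). A set of 10 genes is too small to weigh these gaps. The members' median log2 fold change was 0.10 with DMSO and 0.40 with honokiol, beside -0.05 and -0.02 over all genes tested. Both comparisons rest on lines grown apart, and the honokiol doses may differ between them.

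SLC40A1 had the widest gap. Every U-937 library (0.60 to 1.22 FPKM) lay below every THP-1 library (2.29 to 3.56 FPKM), and ferroportin mRNA was 3.61-fold lower with DMSO (log2 fold change -1.85, SE 0.29, adjusted p = 0.000210) and 3.48-fold lower with honokiol (-1.80, SE 0.29, adjusted p = 0.000283). ACO1 went the other way, with each U-937 library (6.47 to 8.66 FPKM) above each THP-1 library (1.74 to 3.13 FPKM). It was 2.82-fold higher with DMSO (log2 fold change 1.49, SE 0.20, adjusted p = 6.2e-05) and 2.85-fold higher with honokiol (1.51, SE 0.20, adjusted p = 6.28e-05). In bulk RNA, fewer cells that express a gene and less of its RNA per cell cannot be told apart.

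STEAP3 was 2.42-fold higher in U-937 with DMSO (log2 fold change 1.27, SE 0.22, adjusted p = 0.000366) and 1.57-fold higher with honokiol (0.65, SE 0.21, adjusted p = 0.0244). The libraries of the lines did not overlap for STEAP3 under either treatment. For honokiol the call at any fold was lost when replicate 2 or 3 of either line was left out (adjusted p = 0.0521 to 0.0845). SLC11A2 was 1.60-fold lower in U-937 with DMSO (log2 fold change -0.68, SE 0.15, adjusted p = 0.00221) and did not pass with honokiol (-0.28, SE 0.15, adjusted p = 0.139).

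TFRC had nearly equal means in the lines with DMSO, 59.1 ± 6.45 FPKM in THP-1 and 58.7 ± 25.6 FPKM in U-937 (SD, n = 3), with a log2 fold change of -0.07 (SE 0.27, adjusted p = 0.846). With honokiol it was 25.0 ± 5.02 FPKM in THP-1 and 58.7 ± 7.74 FPKM in U-937 (SD, n = 3), 2.20-fold higher in U-937 (log2 fold change 1.14, SE 0.27, adjusted p = 0.00421). This call held without each honokiol library in turn (log2 fold change 1.01 to 1.303, adjusted p = 0.00582 to 0.0227). It uses the same THP-1 honokiol libraries as the comparison with DMSO above.

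Of the ferritin chains, FTL passed between the lines and FTH1 did not. FTL was 1.80-fold higher in U-937 with DMSO (log2 fold change 0.84, SE 0.28, adjusted p = 0.0227) and 1.84-fold higher with honokiol (0.88, SE 0.28, adjusted p = 0.0196), while FTH1 was at a log2 fold change of -0.70 (SE 0.44, adjusted p = 0.199) and -0.01 (SE 0.43, adjusted p = 0.991). Without U-937 DMSO replicate 1 the FTH1 value with DMSO was -1.24 (adjusted p = 0.0361), and the FTL value was 0.62 (adjusted p = 0.0973). The FTL call with DMSO was also lost without THP-1 DMSO replicate 2 or 3 or U-937 DMSO replicate 2 (adjusted p = 0.0601 to 0.0861). With honokiol the FTL call was lost without THP-1 replicate 1 or U-937 replicate 2 or 3 (adjusted p = 0.0508 to 0.0848).

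Within a library the ratio of FTH1 to FTL separated the lines with DMSO. It was 0.0952 to 0.0985 in THP-1 and 0.0261 to 0.0419 in U-937, a log2 difference of -1.63 or a 3.10-fold lower ratio (exact permutation p = 0.1, the smallest possible). The log2 difference was -1.85 to -1.51 when each DMSO library was left out. The ratio of IREB2 to ACO1 FPKM was 4.55, 6.89 and 4.13 in THP-1 with DMSO and 1.98, 3.13 and 2.18 in U-937, a log2 difference of -1.08 (2.12-fold lower), again with no overlap and the smallest possible exact permutation p of 0.1. Honokiol libraries did not separate from DMSO libraries in this ratio (exact permutation p = 0.6 in each line).

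Of the remaining genes, IREB2 was 1.38-fold higher in U-937 with DMSO (log2 fold change 0.47, SE 0.15, adjusted p = 0.0228) and at 0.36 with honokiol (SE 0.15, adjusted p = 0.0655). The call with DMSO was lost when replicate 2 or 3 of either line was left out (adjusted p = 0.0516 to 0.0978). NCOA4 was 1.36-fold higher in U-937 with honokiol (log2 fold change 0.44, SE 0.13, adjusted p = 0.0161) and at 0.26 with DMSO (SE 0.13, adjusted p = 0.121). Without THP-1 DMSO replicate 1 the value with DMSO was 0.39 and passed (adjusted p = 0.0235), as it did with limma at each pseudocount. The call with honokiol was lost without THP-1 honokiol replicate 3 or U-937 honokiol replicate 1 or 3 (adjusted p = 0.0538 to 0.0627). PCBP2 was 1.54-fold lower in U-937 with honokiol (log2 fold change -0.62, SE 0.12, adjusted p = 0.000816) and at -0.19 with DMSO (SE 0.12, adjusted p = 0.199). Another gene row, an lncRNA on the same strand (ENSG00000257379), overlaps PCBP2 and held 15.3% as many counts as PCBP2, so reads may be divided between them.

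**Figure D4:**
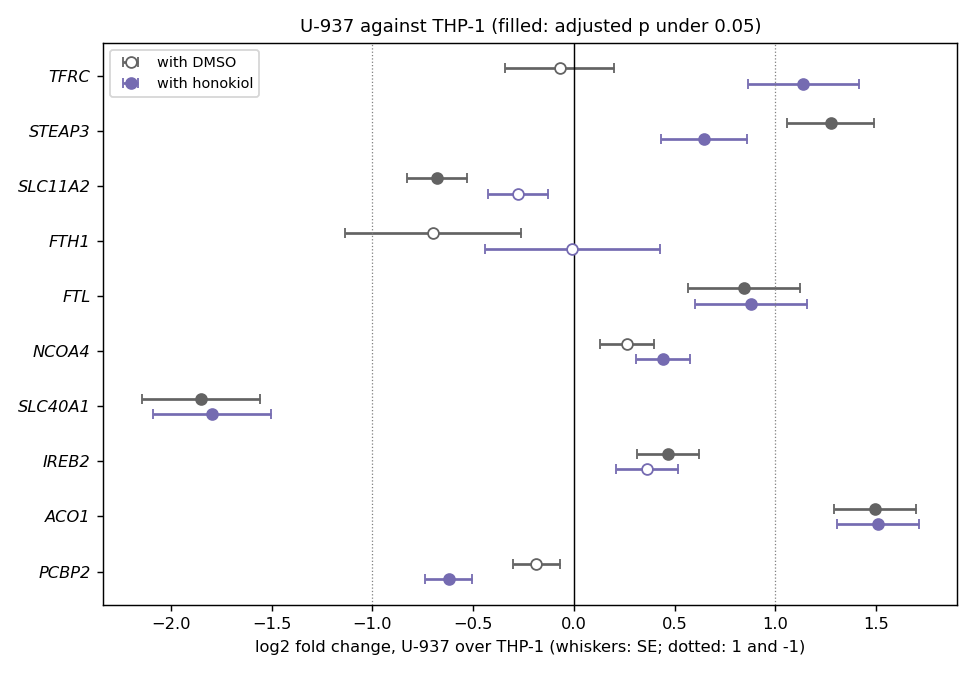
Log2 fold change of each iron gene, U-937 over THP-1, with DMSO and with honokiol (edgeR fit of 12 libraries, whiskers are SE, dotted lines mark 1 and -1). Filled points have an adjusted p under 0.05. SLC40A1 lies near -1.8 and ACO1 near 1.5 under both treatments, and TFRC passed the test with honokiol (1.14) and not with DMSO (-0.07).

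Ordered by group mean, TFRC ran from THP-1 with DMSO through both U-937 groups, 3 neighbours that overlap, down to THP-1 with honokiol. That last group overlapped none of them, but its highest library (30.51 FPKM) lay just under U-937 DMSO replicate 1 (30.89 FPKM). STEAP3 and ACO1 formed a higher pair of U-937 groups and a lower pair of THP-1 groups, and SLC40A1 the reverse, with overlap within each pair and none between. For SLC11A2 only the lowest group, U-937 with DMSO, was clear of its neighbour, for NCOA4 the lowest, THP-1 with honokiol, and for PCBP2 the highest, THP-1 with honokiol. For FTH1, FTL and IREB2 each group overlapped the next.

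The wider pathway was described with 85 other iron genes, of which 82 were in the table. In THP-1 0 of 63 tested and in U-937 0 of 62 had an adjusted p under 0.05. At an unadjusted p under 0.05, 4 were higher and 3 lower in THP-1, against 6.84% and 6.22% of all genes, and 2 were higher and 2 lower in U-937, against 8.25% and 8.44%. Their median log2 fold change was 0.07 for THP-1 and -0.08 for U-937. DESeq2 gave adjusted p of 0.00368 for LRP1 and 0.0102 for EPAS1 in THP-1.

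In THP-1 the genes with an unadjusted p under 0.05 and the largest positive values were LRP1, EPAS1 and FECH. LRP1, a scavenger receptor that takes up heme bound to hemopexin, was at 4.80, 3.99 and 5.75 FPKM with DMSO and at 7.01, 13.9 and 13.1 with honokiol (log2 fold change 1.16, SE 0.27, adjusted p = 0.174). EPAS1, the hypoxia factor HIF-2α, whose mRNA carries a known 5′UTR IRE, was at 1.01, 0.75 and 0.81 FPKM with DMSO and at 1.34, 2.51 and 2.0 with honokiol (1.12, SE 0.28, adjusted p = 0.195). FECH, which inserts iron into heme, had a log2 fold change of 0.48 (SE 0.20, adjusted p = 0.368).

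For LRP1 and EPAS1, as for FECH, the honokiol libraries of THP-1 lay above the DMSO libraries. Without honokiol replicate 1, LRP1 had an adjusted p of 0.0449. In U-937, LRP1 was at or under 0.27 FPKM in all 6 libraries and was not tested, and EPAS1 was at 0.12 (SE 0.31, adjusted p = 0.881). Of the genes with an unadjusted p under 0.05, those with the lowest values in THP-1 were IBA57, an iron-sulfur cluster assembly factor (-0.72, SE 0.23, adjusted p = 0.290), SFXN1, a mitochondrial serine transporter (-0.38, SE 0.14, adjusted p = 0.335), and SLC39A8, a transporter of zinc and iron (-0.31, SE 0.13, adjusted p = 0.371).

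In U-937 the genes that met the same rule were CIAO2A, a factor of cytosolic iron-sulfur assembly that acts on IRP1 (log2 fold change 0.44, SE 0.17, adjusted p = 0.250), and FBXL5, the iron-sensing ubiquitin ligase subunit that removes IRP2 (0.37, SE 0.15, adjusted p = 0.287). Their honokiol libraries lay above their DMSO libraries, at 6.25 to 7.13 against 3.98 to 5.41 FPKM for FBXL5. SFXN1 (-0.36, SE 0.13, adjusted p = 0.242) and GLRX3, an iron-sulfur carrier (-0.33, SE 0.12, adjusted p = 0.234), were on the lower side. HAMP, which encodes hepcidin, the hormone that removes ferroportin from the surface, was at 0 to 0.18 FPKM and under the limit.

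At an unadjusted p under 0.05, 6.84% of all genes were higher and 6.22% lower in THP-1, and 8.25% and 8.44% in U-937, which is the background for the counts by list. The 7 uptake genes tested in THP-1 had a median log2 fold change of 0.24 with 2 higher and 1 lower at an unadjusted p under 0.05, and the 5 tested in U-937 a median of -0.10 with none. The 23 genes of iron-sulfur cluster assembly had medians of 0.00 and -0.07, with 1 lower in THP-1. The 14 genes of mitochondrial iron and heme synthesis had medians of 0.15 and 0.07, with 1 higher and 1 lower in THP-1 and 1 lower in U-937. The 8 genes listed under control of the iron regulatory proteins, not all of them specific to these proteins, had medians of 0.04 and -0.05, with 2 higher in U-937.

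The other storage and chaperone genes had medians of 0.14 over 5 genes in THP-1 and -0.33 over 6 in U-937, with 1 lower in U-937. The export and hepcidin list had 3 tested genes in each line, with medians of 0.11 and -0.10 and none at that p. The 3 tested transcripts with another known IRE had medians of -0.10 and 0.08, with EPAS1 higher in THP-1. Between the lines, 24 of the 64 genes tested were higher in U-937 with DMSO and 13 lower at an adjusted p under 0.05, against 24.4% and 28.5% of all genes, and with honokiol 20 and 17, against 24.1% and 27.3%.

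**Figure D5:**
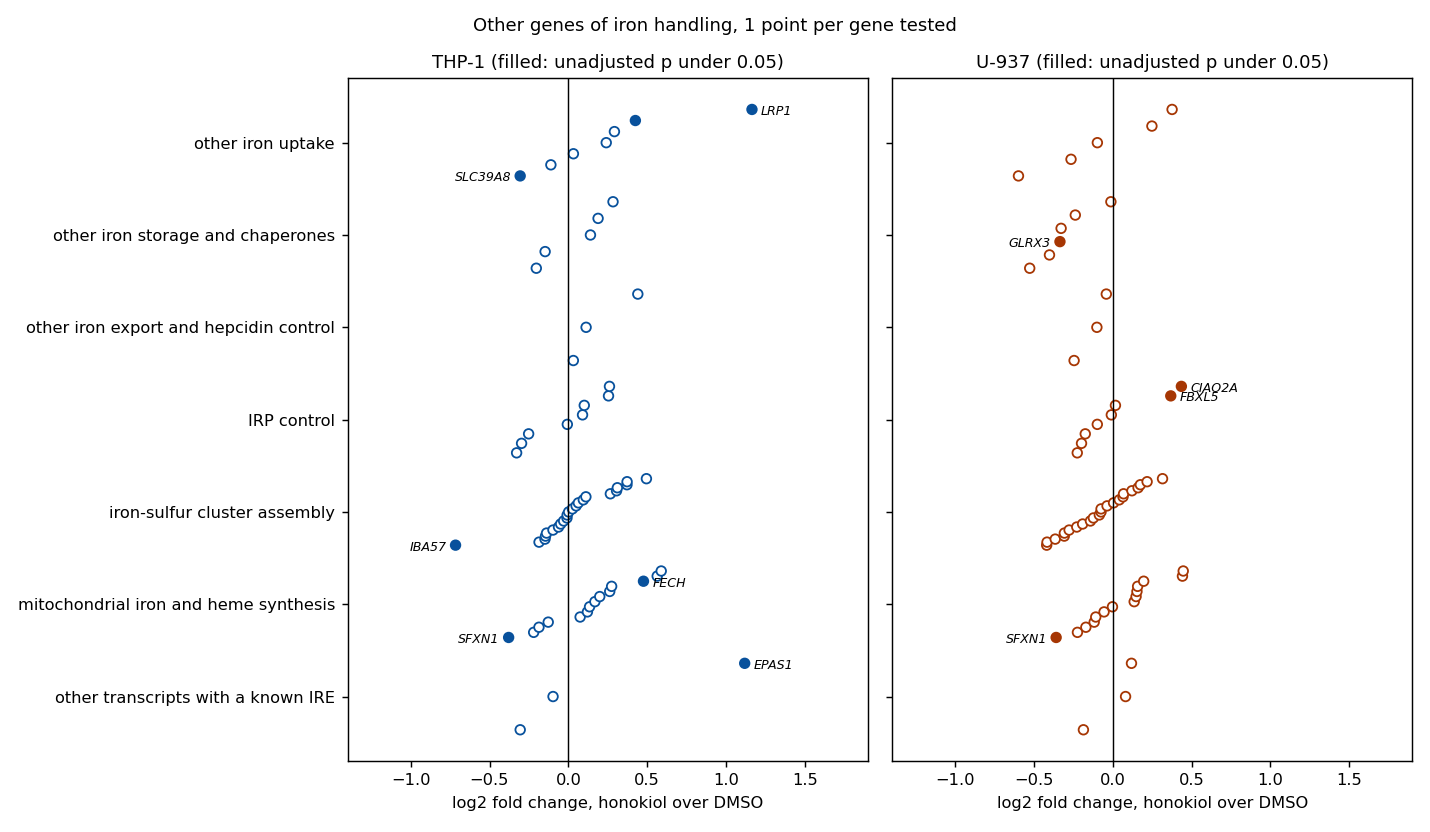
Log2 fold change, honokiol over DMSO, of the other iron genes tested in THP-1 (63) and U-937 (62), 1 point per gene, by list. Filled points have an unadjusted p under 0.05, and names are those given by the rule. LRP1 (1.16) and EPAS1 (1.12) in THP-1 lie farthest from 0, and no point passed after adjustment.

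The genes most like TFRC over the 12 libraries, by Pearson r of log2(FPKM + 0.5) among 10554 named protein-coding genes, were MFAP1 (0.91), PRPF38A (0.89), AQR (0.87), EEF1AKMT1 (0.87) and MBTPS1 (0.86). MFAP1, PRPF38A and AQR encode splicing factors. Those most like FTH1 were GOLGA1 (0.88), CLK1 (0.87), CTSH (0.87), KLF4 (0.84) and PLEKHM1 (0.83). Of the other members, NCOA4 was closest to TFRC (0.71) and SLC11A2 to FTH1 (0.61), and TFRC and FTH1 had r = -0.33 with each other. These are descriptions over 12 libraries in 4 groups, which share line and treatment, and are given with no p.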

How the data were processed

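RNA was sequenced from THP-1 and from U-937 cells, 3 libraries for each line and treatment. Per the labels, total RNA was extracted with Trizol. The table that the authors deposited holds 2 values per gene in each library: FPKM, scaled by the authors to transcript length and library size, and an estimated count, a whole number that the authors did not normalize. The value 4 was more frequent than its neighbours (17264 values of 4, against 6764 of 3 and 4016 of 5), as if a fragment was mostly worth 4 counts. The summed counts of 57406966 to 75065752 per library may therefore overstate the fragments, which was not checked on reads. The submitters' processing notes list HISAT2 2.0, StringTie 1.3.0 and Bowtie 0.12.2 with no roles, and the mouse build mm8, which is at odds with the human gene IDs. Coordinates are as in the table, with 22417 of its 36866 genes placed identically in GENCODE 29 (GRCh38). Whether the counting used strand is not given in the sources used here. Thus reads of FTH1 and BEST1, which overlap on opposite strands (BEST1 held 2.53% as many counts), and of PCBP2 and MAP3K12 (5.9%), may not be told apart.

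The members and the other gene lists were chosen with earlier results of these data known. Genes that reached 0.5 FPKM in 3 or more libraries (of 6 within a line, of 12 between lines) were tested on the counts as deposited by edgeR 4.0.16 (R 4.3.3, TMM, quasi-likelihood test, Benjamini-Hochberg adjustment over all genes tested). A called gene had an adjusted p under 0.05 with a log2 fold change over 1 in size, the thresholds of the study's methods. Those methods name no test for the sequencing, and the study reported many more genes in each line than were called here. Its network of genes that it found changed in both lines includes TFRC. Here TFRC in U-937 had a log2 fold change of -0.07 (adjusted p = 0.931 by edgeR). By qPCR at an earlier time, the study saw no identical change of TFRC among THP-1, U-937 and SKM-1. Fold changes are on the scale of the fitted counts, and SE is the size of the log2 fold change divided by the square root of F. Ratios of FPKM were compared by exact two-sided permutation tests (SciPy 1.17.1). All members are reported. Of the other iron genes, up to 3 per line and direction with an unadjusted p under 0.05 and the largest log2 fold change were named, plus any with an adjusted p under 0.05. The tests were also run on simulated counts with a baseline shared by all groups, and the outcome is not given here. The alternatives were RLE size factors, other filters, DESeq2 1.42.0, counts divided by 4, limma 3.58.1 on log2(FPKM + 0.5, 0.1 or 1), a replicate block, mitochondrial genes left out, pseudogenes summed, other sets of libraries or genes in the fit, other criteria and each library left out. No column of per-sample values was left unused. Raw reads were not used here. Some marker genes are not reported here.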

Additional observations from a re-analysis of the deposited data

How the results depend on the processing

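The number of members called moved with DESeq2 in THP-1, to 1 (TFRC, against 1.71% of all genes). With an unadjusted p in place of the adjusted one it moved to 1 in THP-1 and 1 for the difference between lines. This was TFRC each time, against 2.79% and 4.29% of all genes. At any fold change it moved to 6 with DMSO and 7 with honokiol between lines, against 52.9% and 51.4% of all genes. The cause was not tested. Leaving out 1 library gave 0 members called in each line and for their difference, and 3 to 4 between lines with either treatment. FTH1 joined without U-937 DMSO replicate 1 and FTL without U-937 DMSO replicate 3, and with honokiol FTL without U-937 replicate 1. Over all genes these fits between lines called 5334 of 16185 to 5462 of 16186 with DMSO. With honokiol they called 4823 of 16080 to 5070 of 16125. Same-numbered libraries of a line correlated at r of -0.218 to 0.166 in their deviations, and differently numbered ones at -0.182 to 0.329. The deviations are from means of 3 libraries, so this cannot decide whether the numbers pair them. With the replicate block 0 members were called in each line and 0 for the difference. Between lines it was 3 with each treatment, against 5437 (DMSO) and 5144 (honokiol) of 16283 genes. TFRC in THP-1 had an adjusted p of 0.220 by edgeR with the block. Over all genes DESeq2 called 250 (THP-1) and 223 (U-937), the block 0 and 0, and edgeR 6 and 13, while leaving out 1 library gave 0 to 43 for THP-1 and 0 to 6 for U-937. The 12-library fit called 33 and 108, limma 0 and 16, no filter 0 in THP-1 and the stricter filter 1. For the difference between responses edgeR called 18 genes, DESeq2 181, no filter 12, limma 1 to 3, counts divided by 4 and the block 0, genes past the filter in each line 0, and leaving out 1 library 1 to 22. Between lines with DMSO limma with 1 added called 3115 against 5542, and genes past the filter in each line 2942. With honokiol the same gave 3111 and 2684 against 5249.

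Of 60 single-gene values, the 29 with an unadjusted p under 0.05 kept their direction under each of 542 alternatives. Of the 31 others, 13 changed sign in 53 of 618, to at most 0.31 in size. For TFRC in U-937 the log2 fold change was 0.10 with limma at each pseudocount (0.100, 0.102 and 0.0982), 0.0136 with the block, and -0.37 to 0.23 without 1 library. Between lines with DMSO it was 0.26 without replicate 1 of both lines, an alternative chosen after seeing the data, and -0.38 to 0.21 without 1 library. ACO1 in THP-1 was 0.00322 with the stricter filter, 0.069, 0.0849 and 0.0557 with limma and 0.0313 with the block. Its difference between responses was -0.0201 with the block, -0.00464 without mitochondrial genes and -0.10 without both replicates 1, that of SLC40A1 -0.15 and that of IREB2 -0.27 without both. FTH1 between lines with honokiol was 0.00188 with no filter, and SLC11A2 in THP-1 was 0.0171, 0.0194 and 0.0149 with limma. Without 1 library the sign-changing values lay at -0.22 to 0.16 (ACO1, THP-1), -0.0644 to 0.13 (ACO1, U-937), -0.15 to 0.23 (ACO1, difference), -0.67 to 0.31 (FTH1, lines with honokiol), -0.21 to 0.25 (FTL, difference), -0.26 to 0.0307 (IREB2, difference), -0.0622 to 0.23 (IREB2, U-937), -0.14 to 0.00742 (NCOA4, U-937), -0.16 to 0.0767 (SLC11A2, THP-1), -0.16 to 0.28 (SLC40A1, difference) and -0.34 to 0.11 (SLC40A1, U-937). The log2 difference in TFRC to FTH1 without 1 library was -1.61 to -1.28 in THP-1 and -1.62 to -0.36 in U-937.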

Other observations

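PCBP1, an intronless relative of PCBP2 and the iron chaperone best known for loading ferritin, was looked at after its values were seen. Its FPKM was 99.1, 102 and 121 in THP-1 with DMSO and 120, 126 and 135 with honokiol, and 343, 324 and 324 in U-937 with DMSO and 285, 307 and 304 with honokiol. The log2 fold change was 0.19 (SE 0.12, adjusted p = 0.531) in THP-1 and -0.24 (SE 0.13, adjusted p = 0.388) in U-937, where each honokiol library lay below each DMSO library. The difference between the responses was -0.44 (SE 0.16, unadjusted p = 0.0168, adjusted p = 0.406 by edgeR's quasi-likelihood test), beside -0.43 for PCBP2.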
